A study of Triticum aestivum with 6 samples.

Results

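Aleurone and starchy endosperm of developing bread wheat grain (Triticum aestivum, cultivar Banks) were compared at 9 days post anthesis (DPA), the middle of 3 sampled stages. The libraries labelled aleurone 9 DPA and starchy endosperm 9 DPA were taken by their titles, 2 of the 6 libraries of the series. The other 4 hold the same tissues at 6 and 14 DPA and served for context. All tissues were dissected by hand from grain, and every preparation was a pool of seeds from several spikes and plants. There was 1 pool, and 1 library, for each tissue and stage, so no replicate error exists, no test was made and every difference below is a difference between these libraries.

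The endosperm of a cereal grain forms both tissues. The aleurone is its living outer cell layer, which stores oil, minerals and protein and releases hydrolytic enzymes during germination. The starchy endosperm is the inner mass of cells that fills with starch and storage proteins, and its cells die as the grain matures.

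Reads were counted on 221925 transcript sequences, of which 93508 carry identifiers that begin with TC and 128417 carry other identifiers. The files give no gene name, function or genome position with an identifier, and 0 identifiers matched the reference gene table used here. For that reason no pathway or cell type marker is reported, the tissue labels were not checked against marker genes, and sequences are named by identifier. Several sequences may stand for the same gene, and the numbers below count sequences. The aleurone library held 4549034 reads, of which 45.1% were counted as unique, and the starchy endosperm library held 4104682 reads, of which 42.1% were unique. The 6 and 14 DPA libraries were deeper, at 27150859 to 37911327 reads.

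Aleurone and starchy endosperm differed widely in their transcripts at 9 DPA, and more sequences were higher in aleurone. A sequence was compared if the library with more reads held at least 50, and 22297 met this limit. Of these, 8553 were at least 4-fold apart, which is 38.4% of those compared. Aleurone was the higher tissue for 5160 (23.1% of those compared), and 3393 were higher in starchy endosperm (15.2%). Another 5685 sequences were between 2-fold and 4-fold apart, and 8059 (36.1%) were within 2-fold. The limit of 50 reads lets a sequence in through the tissue where it is high, which favours large ratios. With at least 100 reads over both libraries, 33.8% of 17020 sequences were 4-fold apart, 19.9% toward aleurone and 13.9% toward starchy endosperm. Ratios are aleurone over starchy endosperm on total reads, with library sizes scaled by the trimmed mean of M-values (TMM), and any count below 3 reads was set at 3. The median log2 ratio of all sequences compared was 0.235, with quartiles of -1.17 and 1.83. In pooled tissue, fewer cells of a type and less RNA per cell cannot be told apart.

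**Figure D1:**
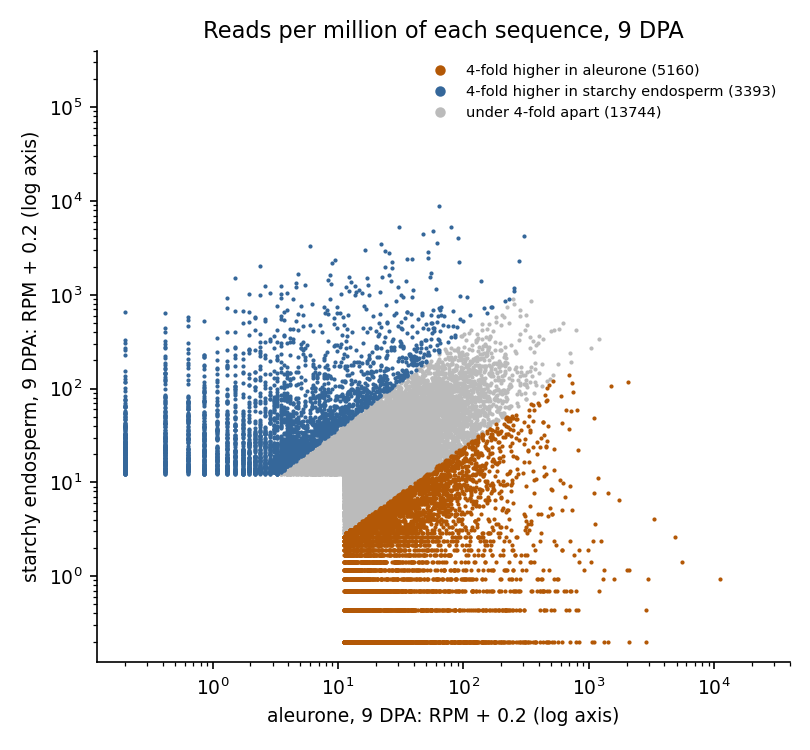
RPM (reads scaled to the library total) of each of the 22297 sequences in aleurone (horizontal, log axis) and starchy endosperm (vertical, log axis) at 9 DPA, with 0.2 added so that 0 can be drawn. The 5160 sequences 4-fold higher in aleurone lie lower right, the 3393 higher in starchy endosperm lie upper left, and sequences under 4-fold apart form the grey band between them.

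Most of these sequences were past 4-fold by more than their counting error. The exact (Clopper-Pearson) 95% interval of the ratio lay wholly past 4-fold for 6154 of the 8553 sequences (71.95%), 3793 of them in the aleurone set and 2361 in the starchy endosperm set. The interval covers the sampling of reads alone and says nothing of differences between pools of grain. The median log2 ratio was 3.86 in the aleurone set and -3.44 in the starchy endosperm set. In the aleurone set 1832 sequences (35.5%) had 3 reads or fewer in starchy endosperm, and in the starchy endosperm set 648 (19.1%) had 3 reads or fewer in aleurone. On unique reads, 11927 sequences had enough reads and 5088 of them (42.7%) were 4-fold apart, 3058 on the aleurone side (25.6%) and 2030 on the starchy endosperm side (17.0%). Of the aleurone set, 2952 sequences could be compared on unique reads and 2861 of them (96.9%) were 4-fold higher there too. Of the starchy endosperm set, 2000 could be compared and 1891 (94.6%) were 4-fold higher there too. No sequence (0) of either set was 4-fold apart in the opposite direction on unique reads. Unique reads are part of the total reads that chose the sets, so this agreement is in part built in. Fewer than 10% of a sequence's reads in the higher tissue were unique for 10.7% of the aleurone set. In the starchy endosperm set this held for 17.4%.

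Each set took up a large part of its own library and little of the other. The aleurone set of 5160 sequences accounted for 37.7% of aleurone reads (exact 95% interval 37.68 to 37.77) and 2.05% of starchy endosperm reads (2.034 to 2.061). The starchy endosperm set of 3393 sequences accounted for 2.51% of aleurone reads (2.498 to 2.527) and 39.3% of starchy endosperm reads (39.24 to 39.34). Sequences within 2-fold held 26.04% of aleurone reads and 25.4% of starchy endosperm reads. The starchy endosperm set was the more concentrated of the 2: 161 of its sequences sufficed for 50% of its starchy endosperm reads, whereas 403 were needed in the aleurone set. The 100 most abundant members held 28.7% of the reads of the aleurone set and 41.3% of those of the starchy endosperm set. Of the reads of each set in its own tissue, 44.9% were unique for the aleurone set and 37.6% for the starchy endosperm set. The concentration was not computed on unique reads. The sets were chosen on these libraries, so these shares describe the sets and are no evidence of a separation.

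Large ratios were found more often on the aleurone side. A ratio toward a tissue can be seen only where the library of that tissue has enough reads. Counts are therefore given over the sequences with enough reads there. At 16-fold or more, the numbers were 2345 of 16000 for aleurone (14.7%) and 1358 of 15003 for starchy endosperm (9.05%). At 256-fold or more, they were 152 of 470 for aleurone (32.3%) and 67 of 691 for starchy endosperm (9.70%). At 1024-fold or more, they were 22 of 42 for aleurone (52.4%) and 3 of 113 for starchy endosperm (2.66%). The imbalance was also present on unique reads, where 256-fold was reached by 72 of 145 sequences for aleurone (49.7%) and by 22 of 197 for starchy endosperm (11.2%). Transcripts abundant in aleurone were thus often near the detection limit in starchy endosperm, while transcripts abundant in starchy endosperm mostly kept a low but countable level in aleurone. Whether the low level came from starchy endosperm cells left on the aleurone during dissection was not tested.

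**Figure D2:**
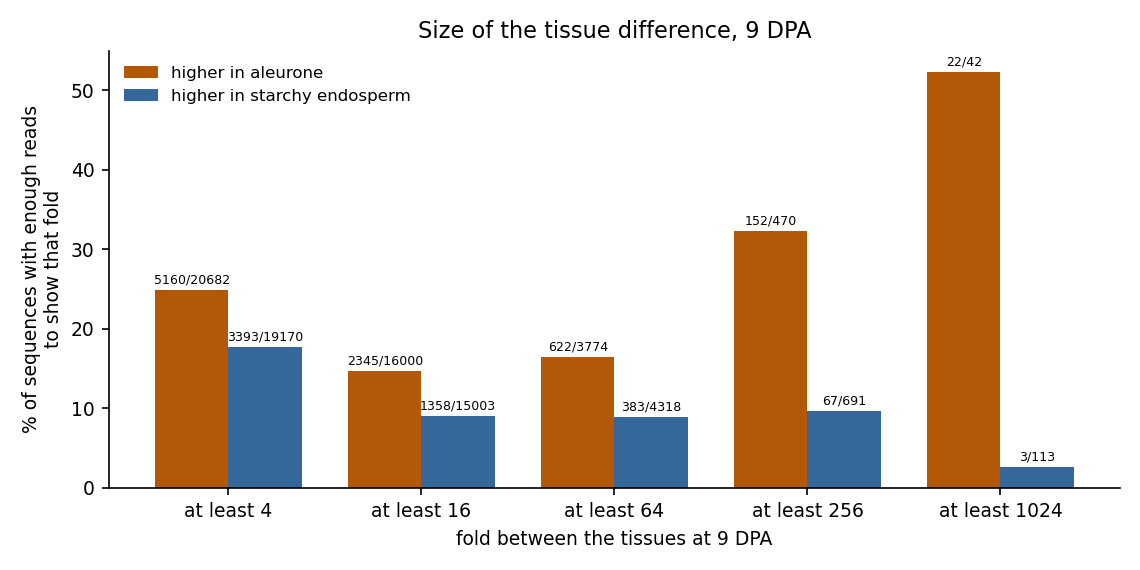
Share of sequences (vertical, percent) past 4, 16, 64, 256 or 1024-fold toward aleurone (left bars) or toward starchy endosperm (right bars) at 9 DPA. Each share is among sequences with enough reads in the tissue of the bar to show that fold. Numbers over the bars are counts, and the gap between the tissues is widest at 1024-fold, with 22 of 42 for aleurone against 3 of 113 for starchy endosperm.

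The 100 most abundant sequences of each library, ranked by reads and not per length, were mostly far apart between the tissues at 9 DPA. Ranking by reads in the own tissue favours ratios toward that tissue, so the values describe these groups and are no independent evidence of a separation. Of the 100 most abundant in aleurone, 88 were at least 4-fold higher in aleurone, 57 at least 256-fold, and 5 were within 2-fold. Of the 100 most abundant in starchy endosperm, 95 were past 4-fold toward starchy endosperm, 20 past 256-fold, and none (0) was within 2-fold. The aleurone group had between 2195 and 50669 reads in aleurone, and a median of 8 reads in starchy endosperm with a range of 0 to 2071. The starchy endosperm group had a median of 103 reads in aleurone with a range of 5 to 1565, and between 2831 and 36464 reads in starchy endosperm. The groups shared 0 sequences at 9 DPA, and groups chosen in the same way shared 7 at 6 DPA and 3 at 14 DPA. In all, 36 of the 9 DPA aleurone group had 3 reads or fewer in the other tissue, and 0 of the 9 DPA starchy endosperm group did. Of the reads of each 9 DPA group in its own tissue, 41.0% were unique for aleurone and 29.9% for starchy endosperm. The ranks therefore rest mostly on reads not counted as unique, more so in starchy endosperm.

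In the group of 100 most abundant aleurone sequences, the median log2 ratio of own to other tissue was 7.24 for 6 DPA, 8.87 for 9 DPA and 4.81 for 14 DPA. In the starchy endosperm group it was 4.85, 6.30 and 5.13 for the same stages. On library totals in place of TMM the medians were 7.44, 8.94 and 5.50 in aleurone and 4.65, 6.23 and 4.44 in starchy endosperm. The 9 DPA median was thus the highest of the 3 in both tissues and under both scalings, while the order of the tissues at 14 DPA turned with the scaling. Library totals placed the log2 ratio of aleurone over starchy endosperm higher than TMM did, by 0.197 at 6 DPA, 0.074 at 9 DPA and 0.69 at 14 DPA, so ratios at 14 DPA depend most on it.

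**Figure D3:**
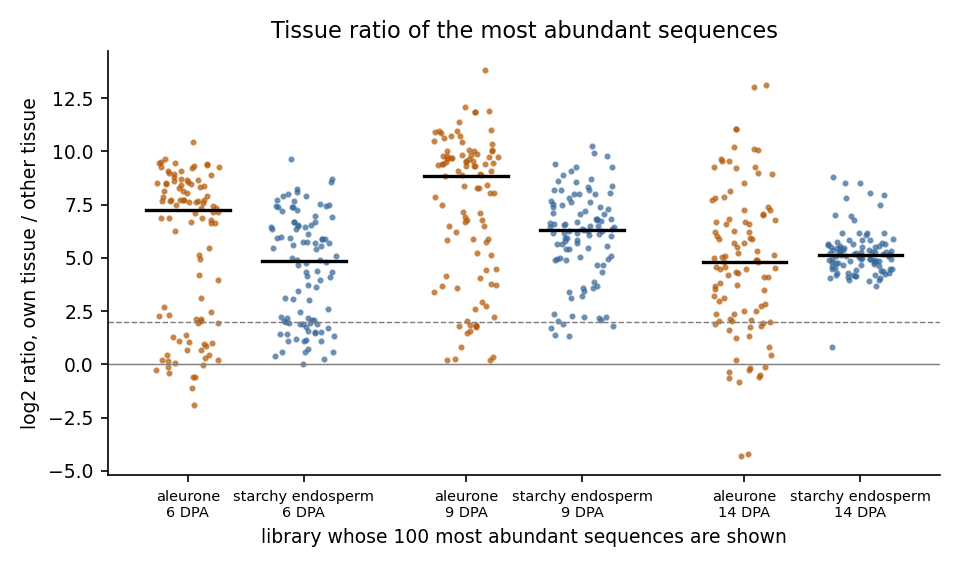
Log2 ratio of own to other tissue (vertical) for the 100 most abundant sequences of each library, 1 point per sequence, with medians as black bars and the 4-fold threshold dashed. At 9 DPA the medians are 8.87 for aleurone and 6.30 for starchy endosperm, and no point lies below 0.

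Detection leaned toward aleurone too. The aleurone library was deeper (4549034 against 4104682 reads), which favours detection there, and these counts were not matched for depth. At least 1 read was found for 85063 sequences in both tissues, for 23364 in aleurone alone and for 16610 in starchy endosperm alone, while 96888 had no read in either. Most sequences seen in 1 tissue alone were scarce, with a median of 2 reads in those of aleurone and 1 read in those of starchy endosperm. Among them, 875 had at least 50 reads in aleurone and none in starchy endosperm, and 207 had at least 50 reads in starchy endosperm and none in aleurone. The sequences seen in aleurone alone held 7.77% of aleurone reads, and those seen in starchy endosperm alone held 2.04% of starchy endosperm reads. A count of 0 allows up to 3 reads, which on the RPM scale is 0.660 RPM in aleurone and 0.731 RPM in starchy endosperm, so lower levels were not detectable at this depth.

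The rule for named sequences took, in each direction, the 2 whose counting interval lay farthest from equality among those 4-fold apart on both total and unique reads. The choice used the 9 DPA libraries, which favours larger ratios at 9 DPA than at other stages. TC371473 (806 bases) had the most reads of all sequences in the aleurone library. It had 50669 reads in aleurone, of which 16836 were unique, against 3 reads in starchy endosperm. Its level was 13819 RPKM in aleurone and 0.907 RPKM in starchy endosperm. RPKM values are reads per kilobase of sequence, scaled to library size, as deposited by the authors. On TMM-scaled reads the ratio was 14482-fold, with an exact 95% counting interval of 4955 to 70229. On unique reads the ratio was 4846-fold, below that interval, with a lower limit of 1658. Across stages it stood at 2976, 13819 and 4.81 RPKM in aleurone at 6, 9 and 14 DPA, and at 12.8, 0.907 and 0.066 RPKM in starchy endosperm. Aleurone was thus the higher tissue at all 3 stages, and both tissues had their lowest level at 14 DPA, with 147 reads in aleurone and 2 reads in starchy endosperm.

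GH731202 (666 bases) ranked next by reads in aleurone at 9 DPA and followed the same course. It had 25080 reads in aleurone, of which 12880 were unique, against 5 reads in starchy endosperm. The ratio was 4301-fold, with an interval of 1843 to 13248, and 3708-fold on unique reads. In aleurone it stood at 1379, 8278 and 0.951 RPKM at 6, 9 and 14 DPA, and in starchy endosperm at 6.68 and 1.83 RPKM at 6 and 9 DPA, with no read at 14 DPA.

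TC413770 (1464 bases) ran the other way and ranked by reads at number 34 in starchy endosperm. It had 6 reads in aleurone, against 6193 reads in starchy endosperm, of which 860 were unique. Its log2 ratio was -10.2, which is a level 1204-fold higher in starchy endosperm with an interval of 552.7 to 3281. On unique reads it was 332-fold higher in starchy endosperm, below that interval, with a lower limit of 113.2. In aleurone it had no read at 6 DPA, 0.901 RPKM at 9 DPA and 244.8 RPKM at 14 DPA, and in starchy endosperm it stood at 1.59, 1031 and 3007 RPKM. At 14 DPA the RPKM values were closer than at 9 DPA, and starchy endosperm was still the higher tissue.

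TC370366 (1170 bases) had 10 reads in aleurone and 8294 reads in starchy endosperm, where it ranked at number 23. Its log2 ratio was -9.92, or a level 967-fold higher in starchy endosperm, with an interval of 525.7 to 2018. Of its starchy endosperm reads 123 were unique (1.48%), and on unique reads the ratio was 47.5-fold, below that interval. The total count of TC370366 therefore rests almost wholly on reads not counted as unique. In aleurone it stood at 0.189, 1.88 and 28.5 RPKM at 6, 9 and 14 DPA, and in starchy endosperm at 57.4, 1727 and 3217 RPKM.

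**Figure D4:**
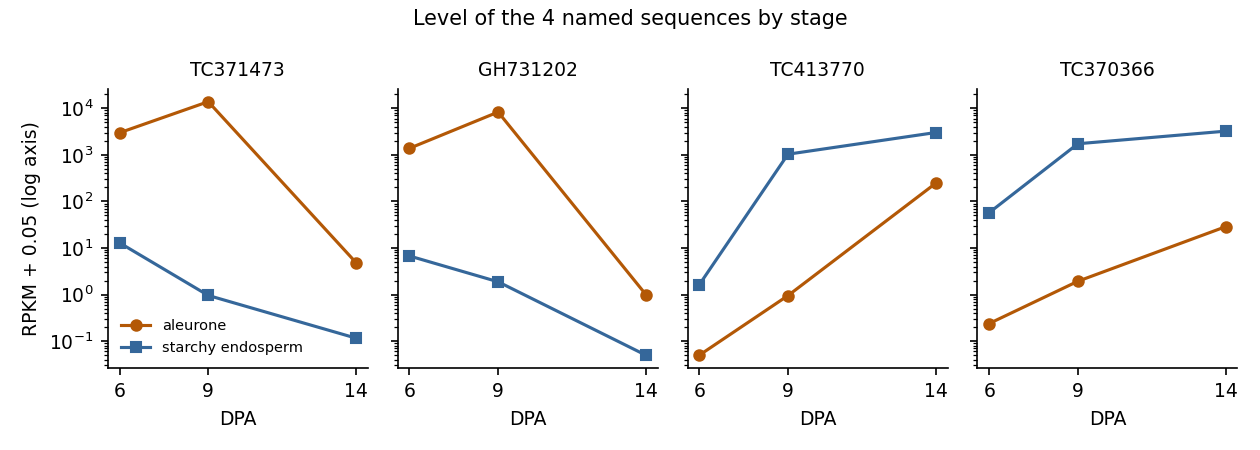
RPKM (log axis, 0.05 added) of the 4 named sequences at 6, 9 and 14 DPA, 1 library per point, aleurone as circles and starchy endosperm as squares. TC371473 and GH731202 peak in aleurone at 9 DPA and lie at 4.81 and 0.951 RPKM there at 14 DPA, whereas TC413770 and TC370366 are highest at 14 DPA in both tissues.

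The sets chosen at 9 DPA were then followed into the libraries of the other stages, whose reads entered the choice only through the TMM factors. The aleurone set held 30.3%, 37.7% and 8.88% of aleurone reads at 6, 9 and 14 DPA, and 5.56%, 2.05% and 2.30% of starchy endosperm reads. The starchy endosperm set held 3.43%, 2.51% and 12.9% of aleurone reads, and 22.3%, 39.3% and 55.6% of starchy endosperm reads. The share of aleurone reads in the aleurone set was thus lower at 14 DPA than at 9 DPA. Members were chosen by their 9 DPA reads, which favours a higher share at 9 DPA than at other stages. At 14 DPA the starchy endosperm set held a larger share of the aleurone library than the aleurone set did. Whether more starchy endosperm was carried along in the 14 DPA aleurone preparation was not tested.

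**Figure D5:**
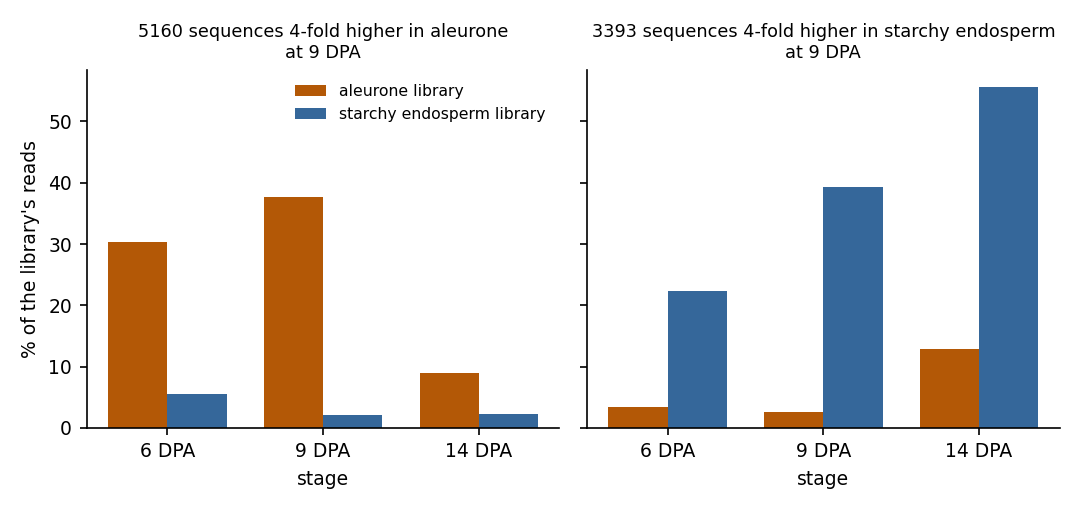
Percent of each library's reads (vertical) held by the 5160 sequences 4-fold higher in aleurone at 9 DPA (left panel) and by the 3393 sequences 4-fold higher in starchy endosperm at 9 DPA (right panel), at 6, 9 and 14 DPA, with aleurone libraries left of starchy endosperm libraries. The aleurone set falls to 8.88% of aleurone reads at 14 DPA, and the starchy endosperm set reaches 55.6% of starchy endosperm reads at that stage.

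To compare ratios between stages, all 6 libraries were thinned at random to 4104682 reads. At this depth 8217 of 21413 sequences were 4-fold apart at 9 DPA (38.4%), 4759 toward aleurone (22.2%) and 3458 toward starchy endosperm (16.1%). At 6 DPA 29.5% of 21746 sequences were 4-fold apart, 16.3% toward aleurone and 13.1% toward starchy endosperm. At 14 DPA 30.4% of 17966 were, 17.6% toward aleurone and 12.8% toward starchy endosperm. Aleurone was the higher tissue for 55.4%, 57.9% and 58.01% of the 4-fold sequences at 6, 9 and 14 DPA, and on library totals for 59.8%, 60.5% and 73.6%.

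By number, more of the 9 DPA aleurone set stayed on the aleurone side at 6 DPA than at 14 DPA, where most of it was too scarce to be compared. Of the 4759 sequences, 3833 had at least 50 reads at 6 DPA, and 2344 of these (61.2%) were 4-fold higher in aleurone there, against 16.7% of all sequences compared at both 9 and 6 DPA. At 14 DPA 1689 had at least 50 reads and 793 of these (46.95%) were 4-fold higher in aleurone, against 11.5% of all. On library totals the shares were 62.45% at 6 DPA and 59.9% at 14 DPA, so the size of the difference between these shares depends on the scaling. The median log2 ratio of the aleurone set was 2.65 at 6 DPA and 1.84 at 14 DPA, against 0.123 at 6 DPA and 0.051 at 14 DPA over all sequences.

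Of the 3458 sequences of the starchy endosperm set, 1999 had at least 50 reads at 6 DPA, and 1258 of these (62.9%) were 4-fold higher in starchy endosperm there, against 10.4% of all. At 14 DPA 2273 had at least 50 reads and 1145 of these (50.4%) were 4-fold higher in starchy endosperm, against 12.1% of all. On library totals the 14 DPA share was 44.7%. The median log2 ratio of this set was -2.97 at 6 DPA and -2.02 at 14 DPA. At all 3 stages, 495 sequences (10.4%) of the aleurone set and 581 (16.8%) of the starchy endosperm set were 4-fold apart in the same direction. For both sets together this was 13.1%. Without thinning it was 25.04% on total reads and 27.9% on unique reads. A further 1849 of the aleurone set (38.9%) shared the direction with 6 DPA but not with 14 DPA, and 298 (6.26%) with 14 DPA but not with 6 DPA. In the starchy endosperm set these numbers were 677 (19.6%) and 564 (16.3%). The largest class in either set was 4-fold apart in its direction at 9 DPA but not at 6 or 14 DPA, with 2117 of the aleurone set (44.5%) and 1636 of the starchy endosperm set (47.3%). This class includes 857 sequences of the aleurone set and 787 of the starchy endosperm set that were under 50 reads at both other stages. With 50 reads at both other stages, the class held 585 of the aleurone set (12.3%) and 509 of the starchy endosperm set (14.7%). At 14 DPA, 3070 sequences of the aleurone set and 1185 of the starchy endosperm set were under 50 reads, whatever their count at 6 DPA. These classes therefore follow abundance as well as direction.

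The most abundant sequences of 9 DPA were also followed. Ranking by 9 DPA reads favours high levels at 9 DPA over those at other stages. Of the 100 most abundant in aleurone at 9 DPA, 56 were also among the 100 most abundant in aleurone at 6 DPA, and 2 were at 14 DPA. Their median level in aleurone was 490.5 RPM at 6 DPA, 718 RPM at 9 DPA and 10.3 RPM at 14 DPA. Of the 100 most abundant in starchy endosperm at 9 DPA, 29 were among the 100 most abundant there at 6 DPA and 55 at 14 DPA. Their median level in starchy endosperm was 271.1 RPM at 6 DPA, 1172 RPM at 9 DPA and 1581 RPM at 14 DPA. In aleurone the same sequences had medians of 2.47, 22.8 and 141.7 RPM. At full depth all 100 of the aleurone group had 50 reads at 6 DPA, where 83 were 4-fold higher in aleurone, and 80 had them at 14 DPA, where 53 were. Of the starchy endosperm group 99 had 50 reads at 6 DPA, where 86 were 4-fold higher in starchy endosperm, and 99 at 14 DPA, where 84 were. Over all sequences compared at full depth, 27.0% were 4-fold apart at 6 DPA (15.0% toward aleurone and 12.0% toward starchy endosperm) and 27.3% at 14 DPA (17.2% toward aleurone and 10.2% toward starchy endosperm). These shares are not matched for abundance. At 9 DPA 30.6% of sequences with 100 to 299 reads over both libraries were 4-fold apart, and 85.2% of those with 3000 or more. Of the 100 most abundant at 6 DPA itself, 74 in each tissue were 4-fold higher in that tissue.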

How the data were processed

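Per the labels' protocols, RNA of each preparation went through linear amplification primed with oligo-dT and enzymatic removal of the poly(A) stretch, then 15 cycles of PCR, and was sequenced on a Genome Analyzer IIx. The name of the aligner was not given in the sources used here. Per the file headers, the authors deposited, for each sequence, counts of total and unique reads and an RPKM value, which equals total reads scaled by length and library total to within 5e-04. Total counts include reads not counted as unique, and how those were assigned to similar sequences was not stated, so values of homoeologues and paralogues are uncertain.

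TMM factors were computed with edgeR 4.0.16 in R 4.3.3 over sequences that reached 10 reads in 3 or more libraries. Ratios, exact 95% counting intervals and random thinning (1 seed) used Python 3.11.15, numpy 2.4.6 and scipy 1.17.1, and the ratio code was tested on simulated data. PCR copies were not told apart, so intervals and floors cover counting error only. With 1 library per tissue and stage no test was made. Sequences were compared if the higher of the 2 counts reached 50 reads, and counts under 3 reads were set at 3. The alternatives were unique reads, other scalings (DESeq2 1.42.0 size factors among them), read minimums, floors, folds, interval limits, depth, and kinds of identifier. The named sequences are, in each direction, the 2 with the largest counting limit nearest equality among those 4-fold apart on total and on unique reads with at least 50 of each in the higher library. The comparison, its rules and alternatives were chosen with earlier results of these data known.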

Additional observations from a re-analysis of the deposited data

Results flagged for a closer look

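A small number of sequences had opposite tissue preferences at different stages, which is why they are listed. All numbers are at equal depth and use the 4-fold rule at both stages. Between 9 and 6 DPA, 9 sequences preferred aleurone at 9 DPA but starchy endosperm at 6 DPA, and 8 preferred starchy endosperm at 9 DPA but aleurone at 6 DPA. Between 9 and 14 DPA opposite preferences were more numerous, with 51 that preferred aleurone at 9 DPA but starchy endosperm at 14 DPA, and 67 that preferred starchy endosperm at 9 DPA but aleurone at 14 DPA. At 6 DPA these are 0.235% of the aleurone set and 0.40% of the starchy endosperm set that could be compared, against 10.4% toward starchy endosperm and 16.7% toward aleurone over all sequences compared. At 14 DPA they are 3.02% of the aleurone set and 2.95% of the starchy endosperm set, against 12.1% toward starchy endosperm and 11.5% toward aleurone over all. On library totals the 14 DPA numbers were 40 and 116. With 1 library per tissue and stage, the difference between stages was not tested.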

How the results depend on the processing

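No paired analysis was possible because each tissue had 1 library at 9 DPA, and no library could be left out. The 8553 sequences 4-fold apart became 5088 on unique reads, 14437 at 20 reads in the higher library, 5347 at 100 reads, 18351 with no read minimum, 14238 at 2-fold, 3703 at 16-fold and 1748 on identifiers other than TC. The other 9 alternatives stayed within 1.5 times. One of these, 100 reads over both libraries (5744), was chosen after seeing the data. Aleurone held more than 50% of the 4-fold sequences under every alternative run: 60.3% as reported, 62.1% with library totals, 62.3% with TMM of the 9 DPA pair, 61.5% with DESeq2 size factors, 58.8% at 20 reads, 55.2% with no minimum, 56.5% at 2-fold, 63.3% at 16-fold, 61.6% by counting limit, 58.9% with aleurone thinned to the starchy endosperm total and 58.88% at 100 reads over both. Library totals moved the 9 DPA log2 ratios by 0.074.

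The 37.7% of aleurone reads and 39.3% of starchy endosperm reads in the tissue's own set became 35.8% and 33.9% on unique reads, 38.6% and 38.5% with library totals, 38.64% and 38.46% with TMM of the pair, 38.25% and 38.83% with size factors, 40.04% and 41.2% at 20 reads, 34.7% and 37.2% at 100 reads, 40.6% and 42.01% with no minimum, 50.01% and 52.6% at 2-fold, 24.8% and 25.9% at 16-fold, 33.7% and 35.6% by counting limit, 27.6% and 23.3% without the 100 most abundant sequences of each library, 37.4% and 39.2% after thinning, 32.1% and 35.3% on TC identifiers, 5.59% and 4.01% on other identifiers, and 35.07% and 37.6% at 100 reads over both. The 13.1% of 9 DPA sequences 4-fold apart the same way at all stages became, without thinning, 25.04% on total reads and 27.9% on unique reads. With thinning it became 21.2% when 2-fold sufficed at 6 and 14 DPA and 4-fold was kept at 9 DPA. The 4 named sequences kept their direction in 20 of 20 alternatives. They were chosen for large ratios and for being 4-fold apart on unique reads too. Their direction could therefore hardly change, and this count is no support. On unique reads the log2 ratio of TC371473 was 12.24 in place of 13.82. That of TC413770 was -8.37 in place of -10.23 and that of TC370366 was -5.57 in place of -9.92. Library totals at 6 and 14 DPA were tried after seeing the data, and the 14 DPA ratios moved by 0.69. The cause of these shifts was not tested. At this depth a sequence at 50 reads could not show a ratio above about 16-fold, so larger ratios of scarce sequences are not measurable here.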

Other observations

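Sequences with at least 100 reads over both libraries (17020) were also described by abundance, length and kind of identifier. In this group 33.8% were 4-fold apart at 9 DPA, 3382 toward aleurone and 2362 toward starchy endosperm. The share 4-fold apart was 30.6% of 11265 sequences with 100 to 299 reads over both libraries, 35.3% of 4682 with 300 to 999, 54.4% of 897 with 1000 to 2999 and 85.2% of 176 with 3000 or more. In the last group 55 sequences lay past 4-fold toward aleurone and 95 toward starchy endosperm, whereas aleurone had the larger number in the other 3 groups. Among sequences of up to 712 bases 43.95% were 4-fold apart, against 27.02% of those over 1210 bases. The median log2 ratio was 0.313 in the short sequences and -0.24 in the long ones. Of sequences whose identifier begins with TC 32.1% were 4-fold apart, and of the others 44.7%. What lies behind the relation to length and identifier was not tested.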
